A study of Mus musculus with 14 samples.

Results

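Peaks of 2 histone marks were located at 9 complement genes in mouse kidney. The genes were taken by symbol: the factors C3, C4b, Cfb, Cfi and C1ra, the inhibitors Serping1 and Cd55, and the receptors C3ar1 and C5ar1, 9 of 49943 genes of the RefSeq annotation of GRCm38.p6 on the autosomes, X and Y. The 14 libraries were made from whole kidneys of WT and ACSS2-/- mice, either control or after unilateral ureteric obstruction (UUO), the ligation of a ureter that scars the kidney. ACSS2-/- mice carried a global CRISPR/Cas9 deletion of ACSS2, an enzyme that makes acyl-CoA, including crotonyl-CoA, so that the loss was not limited to the tubules. H3K9 crotonylation (H3K9cr) was measured in 2 libraries of each of the 4 groups, and H3K9 acetylation (H3K9ac) in 2 libraries of each UUO group and 1 library of each control group. The labels give neither sex nor litter, and they give each group its own antibody catalogue number for either mark, so that antibody and group cannot be told apart. Nothing in the labels says that the libraries of a group came from separate animals. The peak names give different mouse numbers to the libraries of the same group and mark, but the labels do not explain these numbers. The p-values therefore measure the spread between libraries.

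Complement is a cascade of plasma and tissue proteins that tags damaged cells and microbes. The classical route begins with C1q and the proteases C1r and C1s and splits C4 and C2, the alternative route amplifies through factor B, and both end in the splitting of C3 and C5. The fragments C3a and C5a act on receptors that are best known on myeloid cells, and tubular cells of an injured kidney are a known source of C3. Both marks are found on histone H3 at active promoters and enhancers.

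For each gene the length covered by peaks was summed, in bp, over the gene and 10 kb on each side. A peak list shows where a signal passed the caller's threshold and not how strong it was. The H3K9cr lists held 32945 to 45014 peaks in control and 27530 to 36734 peaks in UUO kidneys, and the H3K9ac lists 25585 to 32760 and 15988 to 24571 peaks, so that every UUO list was shorter than every control list for H3K9ac, while the H3K9cr ranges overlapped. The lists do not tell how deeply each library was sequenced. Y-linked peaks were listed in 8 of 14 libraries, and the mouse number in the peak names differed from the number in the title for 4 libraries. Acss2 had a peak within 1 kb of its start in 7 of 7 ACSS2-/- and 7 of 7 WT libraries, so that the lists do not check the deletion. Groups were said not to overlap where every library of one lay above every library of the other.

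The receptor gene C5ar1 (chromosome 7, 16246743 to 16259540) gained H3K9cr peaks in UUO kidneys. It encodes the receptor for the fragment C5a. Its covered length was 0 and 0 bp in WT control, 484 and 0 bp in ACSS2-/- control, 3007 and 1179 bp in WT UUO and 2182 and 586 bp in ACSS2-/- UUO kidneys. Every UUO library lay above every control library, with 1738.5 ± 1072 bp (SD, n = 4) against 121 ± 242 bp (SD, n = 4). The difference of 1617.5 bp had p = 0.0286 in the exact two-sided permutation test, the smallest p that 4 against 4 libraries can give, and an adjusted p of 0.149 over the 28438 genes tested. That was the smallest adjusted p of any gene, so that 0 genes passed an adjusted threshold of 0.05, whereas 5447 had an unadjusted p under 0.05 and limma on the log2 scale called 3703, C5ar1 among them (adjusted p = 0.0186). Of the 28438 genes tested 2.38% were higher in every UUO library and 16.8% lower, and 1 of the 9 complement genes was higher and 0 lower. With cover divided by the total covered length of each list, these shares were 14.2% and 7.45%, and 2 of the 9 genes were higher, C5ar1 and Cd55. In whole kidney, fewer cells of a type and less of the mark per cell cannot be told apart.

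The C5ar1 peaks stood in 4 regions. One from -109 to 1260 bp of the start held an H3K9cr peak in 3 of 4 UUO and 0 of 4 control libraries (two-sided Fisher's exact test, p = 0.143). The library without it, ACSS2-/- UUO replicate 2, had the shortest H3K9cr list. Another, 14282 to 15959 bp downstream of the start, held a peak in 4 of 4 UUO libraries and in 1 of 4 control libraries and overlapped C5ar2, the gene of the other C5a receptor. Further out, a region from 16927 to 17733 bp held an H3K9cr peak in 2 UUO libraries and one from 18453 to 19114 bp in 1, with 0 control libraries in either. These outer regions, also inside C5ar2, gave 662 and 596 bp of the cover of WT UUO replicate 1 and 807 bp of that of ACSS2-/- UUO replicate 1. Over C5ar2 itself, with 10 kb on each side, the H3K9cr-covered length overlapped between control (1727 and 1520 bp in WT, 2677 and 2423 bp in ACSS2-/-) and UUO (2656 and 1185 bp in WT, 3082 and 1057 bp in ACSS2-/-). Its difference was -91.75 bp (exact permutation, p = 0.829, adjusted p = 0.989). The separation of the groups at C5ar1 rested on the region at 14282 to 15959 bp for ACSS2-/- UUO replicate 2, and without peaks at the ends of other genes the groups overlapped at a difference of 1012 bp. C5ar1 peaks were short: none was among the 15988 longest peaks of its H3K9cr list, so that the difference was 0 when every list was held to that number. For H3K9ac the covered length was 0 bp in both control libraries, 0 and 375 bp in WT UUO and 0 and 1933 bp in ACSS2-/- UUO libraries, which overlapped. Leaving out each H3K9cr library in turn kept the groups apart, with differences from 1194.67 to 2001.67 bp.

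**Figure D1:**
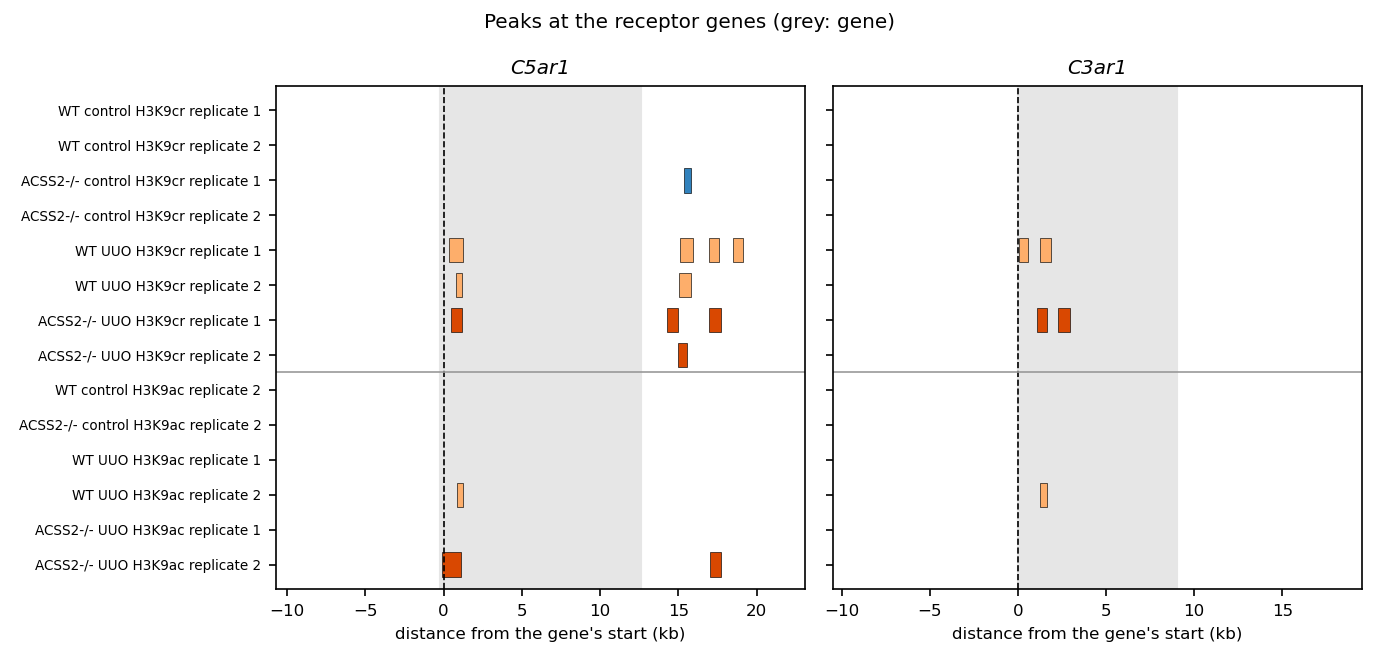
Peaks at the receptor genes C5ar1 and C3ar1 in each of the 14 libraries (rows), as bars against the distance from the gene's start in kb, with the gene in grey, control libraries in blue and UUO libraries in orange. The 3 H3K9cr bars beside the start of C5ar1 and the 4 H3K9cr bars in C3ar1 are all in UUO rows.

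C3ar1 (chromosome 6, 122847140 to 122856157), which encodes the receptor for C3a, had few peaks. Its H3K9cr-covered length was 1140 bp in WT UUO replicate 1 and 1272 bp in ACSS2-/- UUO replicate 1, and 0 bp in the other 6 libraries. The UUO and control groups overlapped (603 ± 698 bp against 0 bp, n = 4 each; exact permutation, p = 0.429, adjusted p = 0.657). The peaks lay inside the gene, 82 to 2978 bp from its start. Both libraries with peaks had the longer UUO lists, of 36734 and 35638 peaks, and held Y-linked peaks, 5 and 14, whereas both UUO libraries without them held 0 Y-linked peaks in lists of 30406 and 27530, and the part of list length and of sex in this was not tested. For H3K9ac only WT UUO replicate 2 had a peak, of 416 bp, and that library held 0 Y-linked peaks.

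C3 (chromosome 17, 57203967 to 57228136), the central protein of the cascade, had peaks in all 14 libraries, most of them upstream. Its H3K9cr-covered length was 5005 and 3332 bp in WT control, 4341 and 4716 bp in ACSS2-/- control, 4835 and 4419 bp in WT UUO and 3981 and 2078 bp in ACSS2-/- UUO kidneys. UUO and control overlapped (3828 ± 1218 against 4349 ± 730 bp, n = 4 each; exact permutation, p = 0.571, adjusted p = 0.793). A region from -8843 to -3072 bp of the start held a peak in 8 of 8 H3K9cr and 6 of 6 H3K9ac libraries, and ends of Trip10 and Gpr108 fall in it. Nearer the start, a region from -2705 to -1864 bp held an H3K9cr peak in 2 of 4 control and 4 of 4 UUO libraries. A peak in the first 3 kb of the C3 gene was listed in 3 of 4 UUO and 0 of 4 control libraries for H3K9cr, and in 2 of 4 UUO and 0 of 2 control libraries for H3K9ac. The H3K9cr peaks there were 404, 380 and 516 bp long, and the libraries with a peak were the same 5 that had one in the first 3 kb of C5ar1. These 5 had the longer UUO lists of their mark. The UUO libraries without a peak had the shortest, of 27530 peaks for H3K9cr and of 15988 and 17271 for H3K9ac. The part of list length in this was not tested. The window of the first 3 kb, on the gene's side of the start, was chosen after the peaks were seen. With 3 kb on both sides, C3 had an H3K9cr peak in 2 of 4 control and 4 of 4 UUO libraries (two-sided Fisher's exact test, p = 0.429). Over all genes with a known strand and an H3K9cr peak there, 1.78% had one in at least 3 UUO libraries and in no control library, and 2 of the 5 complement genes with a known strand did, which were C3 and C5ar1.

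RefSeq promoter sequences of GRCm38.p6, from 250 bases before to 50 bases after the start, were available for 5 of the 9 genes: C3, C3ar1, C5ar1, C1ra and Cd55. Shown are C5ar1, C3ar1 and C3, whose H3K9cr peaks in the first 3 kb of the gene were all in UUO libraries, and C1ra, whose start carried a peak in every H3K9cr library. Capitals mark matches on either strand to a set of short motifs, which did not overlap each other in these promoters. The motif bound by AP-1 factors was written as TGANTCA. The motif bound by STAT factors was written as TTCNNNGAA and the interferon response motif as GAAANNGAA. The core promoter motif TATAAA and, for NF-Y factors, the motif CCAAT were searched as well. GAGGAAG (PU.1) and the NF-kB motif were also searched and had no match in these 5 promoters.
C5ar1 (chr7:16259289-16259588, minus strand): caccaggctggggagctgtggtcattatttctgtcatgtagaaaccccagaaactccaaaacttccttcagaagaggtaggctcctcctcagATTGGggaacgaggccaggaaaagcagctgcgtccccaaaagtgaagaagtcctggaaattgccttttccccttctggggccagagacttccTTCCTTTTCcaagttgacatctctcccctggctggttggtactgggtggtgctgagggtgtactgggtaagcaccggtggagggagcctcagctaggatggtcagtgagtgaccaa
C3ar1 (chr6:122856108-122856407, minus strand): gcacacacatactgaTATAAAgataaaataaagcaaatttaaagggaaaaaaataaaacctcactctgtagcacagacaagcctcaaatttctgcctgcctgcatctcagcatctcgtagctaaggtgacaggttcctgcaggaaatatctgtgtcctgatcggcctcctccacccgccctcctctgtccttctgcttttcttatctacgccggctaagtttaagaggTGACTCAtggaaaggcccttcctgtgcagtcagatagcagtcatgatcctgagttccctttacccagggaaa
C3 (chr17:57228087-57228386, minus strand): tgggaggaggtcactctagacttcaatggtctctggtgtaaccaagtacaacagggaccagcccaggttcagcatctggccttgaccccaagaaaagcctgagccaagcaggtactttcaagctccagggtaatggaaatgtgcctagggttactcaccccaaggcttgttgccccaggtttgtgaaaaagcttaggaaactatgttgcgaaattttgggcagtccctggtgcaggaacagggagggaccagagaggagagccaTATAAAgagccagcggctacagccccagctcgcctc
C1ra (chr6:124512371-124512670, plus strand): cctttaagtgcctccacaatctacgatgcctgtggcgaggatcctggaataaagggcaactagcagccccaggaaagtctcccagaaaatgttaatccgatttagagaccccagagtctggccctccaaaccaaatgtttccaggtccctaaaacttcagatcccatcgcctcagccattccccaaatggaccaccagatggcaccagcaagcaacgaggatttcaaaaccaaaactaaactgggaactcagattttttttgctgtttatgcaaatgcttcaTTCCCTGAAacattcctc
In C5ar1 the capitals are CCAAT on the other strand and the interferon response motif, from -66 to -58 of the start. C3ar1 had TATAAA far upstream and an AP-1 match from -22 to -16. C3 had TATAAA from 15 to 20 and C1ra a STAT match from 33 to 41, both past the listed start. Of 32851 promoters in the table, 13.6% held TATAAA, 7.81% the AP-1 motif, 8.3% the STAT motif, 8.56% the interferon response motif, 37.4% CCAAT, 13.6% the PU.1 motif and 8.46% the NF-kB motif. Cd55 had no match to any of the 7 motifs. A match is a run of letters and not a measured binding site.

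C4b (chromosome 17, 34728139 to 34743902), which encodes complement component C4, was almost without peaks. Its covered length was 322 bp in ACSS2-/- UUO replicate 1 for H3K9cr and 296 bp in ACSS2-/- UUO replicate 2 for H3K9ac, and 0 bp in the other 12 libraries. Both peaks lay at the high-coordinate end, beside Stk19-ps1, and the peak names give both libraries the same mouse number, 3. C4a, a near copy of C4b, was at 0 bp in every library. The authors removed reads of low mapping quality, which affects near-identical genes, and whether it did so here was not tested. C1rb and Cd55b are likewise close copies of C1ra and Cd55, and how the authors' mapping shared reads between them is not known. Over all protein-coding genes, 25.3% had no H3K9cr peak within the window in any library and 61.5% had one in all 8.

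Cfb (chromosome 17, 34856374 to 34862514), the protease subunit of the alternative route, had peaks of both marks in all 14 libraries. Its H3K9ac-covered length was 6045 bp in WT control and 7893 bp in ACSS2-/- control, 541 and 2052 bp in WT UUO and 3402 and 4381 bp in ACSS2-/- UUO kidneys. All 4 UUO libraries lay below both control libraries, with a mean difference of -4375 bp (2594 ± 1669 bp, n = 4, against 6969 ± 1307 bp, n = 2; exact permutation, p = 0.0667, the smallest p of this design; adjusted p = 0.168). Of 25178 genes, 46.1% were lower in every UUO library for H3K9ac and 0.369% higher, and 1 of the 9 complement genes was lower, below that share. After division by total covered length the shares were 11.8% and 20.5%, and the Cfb groups overlapped. For H3K9cr the length was 4075 and 3488 bp in WT control, 4773 and 4494 bp in ACSS2-/- control, 3113 and 2911 bp in WT UUO and 5222 and 2854 bp in ACSS2-/- UUO kidneys. The libraries overlapped through ACSS2-/- UUO replicate 1, and without that library all UUO values were below control. Peaks stood at 2 regions in all 8 H3K9cr libraries, one at the neighbours Skiv2l and Nelfe and one over the high-coordinate end of Cfb, where C2 begins or ends within 1 kb. The region over that end was covered by 2470 to 3133 bp in the control and 1435 to 2600 bp in the UUO H3K9cr libraries.

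**Figure D2:**
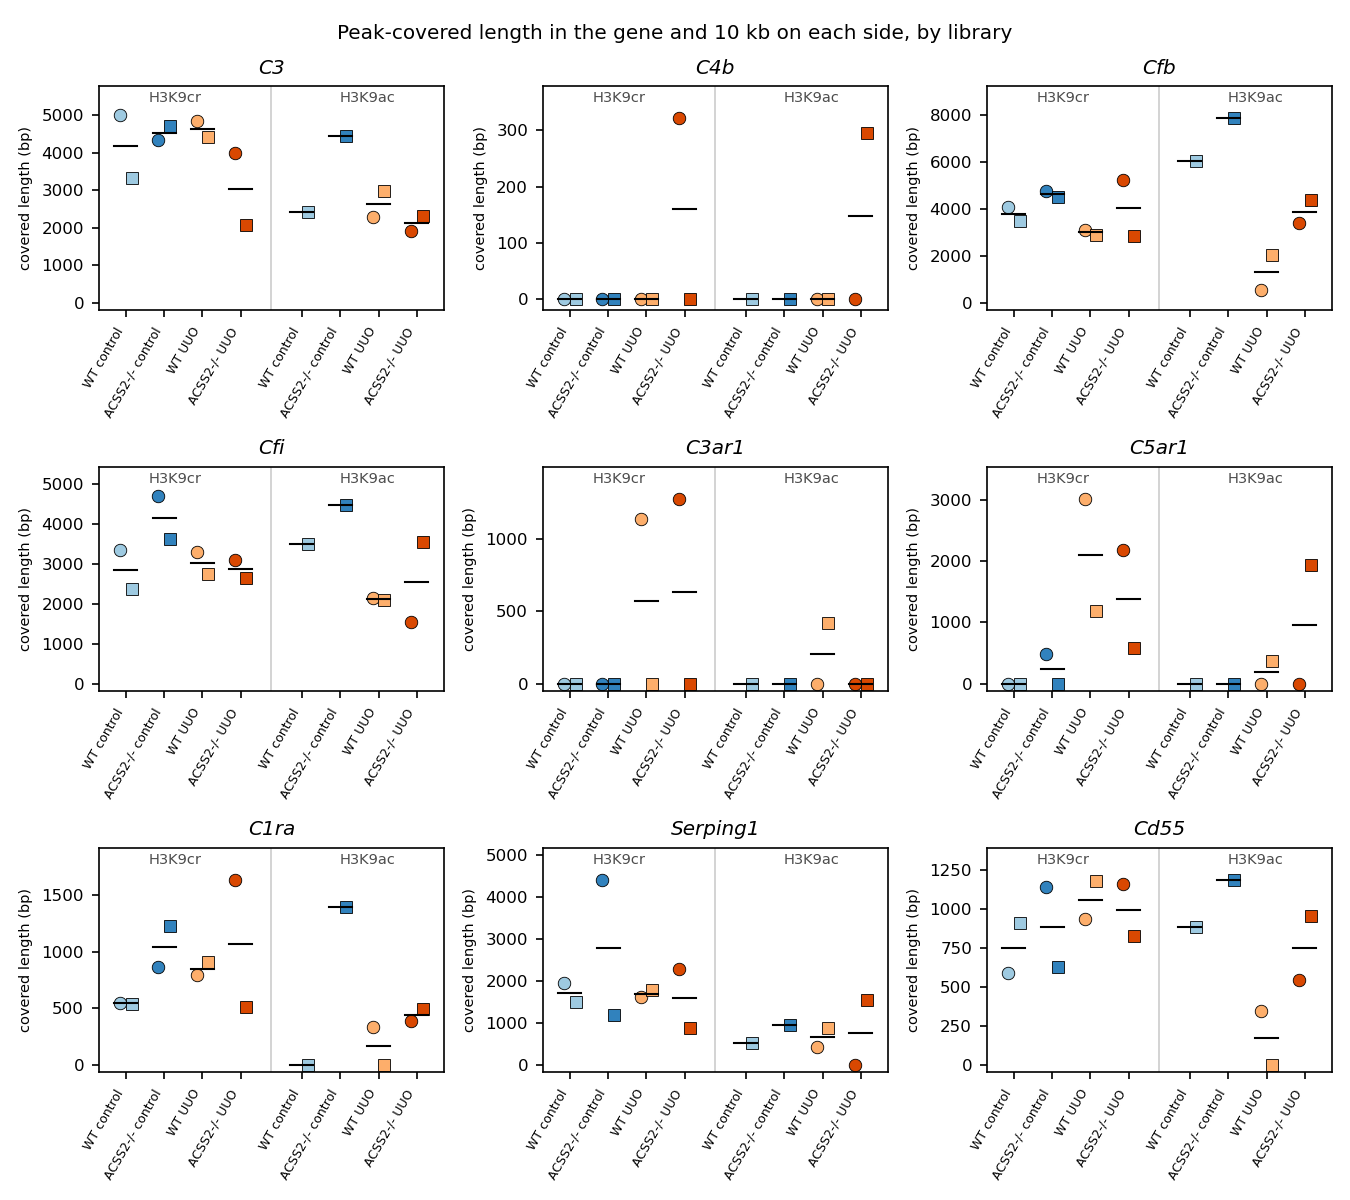
Length covered by peaks, in bp, in each gene and 10 kb on each side, for H3K9cr (left of the line in each panel) and H3K9ac (right), by group. Circles are replicate 1, squares replicate 2 and lines group means. For H3K9cr the UUO points of C5ar1 lie above all control points, and for H3K9ac those of Cfb lie below both control points.

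Cfi (chromosome 3, 129836727 to 129875332) encodes factor I, which inactivates C3b and C4b. Its H3K9cr-covered length ranged from 2364 to 4684 bp in control and from 2651 to 3300 bp in UUO libraries, which overlapped (exact permutation, p = 0.343, adjusted p = 0.609). Peaks beside the ends of Gar1 and Pla2g12a were listed in 8 of 8 H3K9cr libraries. The peak nearest Cfi, 180 bp from its low-coordinate end, was listed in 3 of 4 control and 4 of 4 UUO H3K9cr libraries and in 4 of 6 H3K9ac libraries. For H3K9ac the length was 3497 and 4469 bp in control, 2147 and 2102 bp in WT UUO and 1544 and 3551 bp in ACSS2-/- UUO libraries, so that ACSS2-/- UUO replicate 2 alone overlapped the control values.

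C1ra (chromosome 6, 124512621 to 124523440), the gene of the protease C1r, carried H3K9cr at its start in every library. A region from -741 to 873 bp of the start held a peak in 8 of 8 H3K9cr and 4 of 6 H3K9ac libraries. The H3K9cr-covered length was 548 and 537 bp in WT control, 867 and 1227 bp in ACSS2-/- control, 796 and 907 bp in WT UUO and 1632 and 512 bp in ACSS2-/- UUO kidneys. UUO and control overlapped (962 ± 477 against 795 ± 326 bp, n = 4 each; exact permutation, p = 0.629, adjusted p = 0.844).

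Serping1 (chromosome 2, 84765360 to 84775444) encodes the C1 inhibitor, which blocks C1r and C1s. Its H3K9cr-covered length overlapped between control (1952 and 1484 bp in WT, 4391 and 1181 bp in ACSS2-/-) and UUO (1617 and 1772 bp in WT, 2277 and 887 bp in ACSS2-/-). The exact permutation p was 0.6 and the adjusted p 0.818. The place of some peaks differed between the groups. A region of 1541 bp that lay 7874 bp beyond the low-coordinate end (chr2:84755946-84757486) held a peak in all 4 control libraries, of 1071 and 740 bp in WT and 1541 and 571 bp in ACSS2-/-, and in 0 of 4 UUO libraries. It held no H3K9ac peak in any of the 6 libraries, and no other gene of the annotation has an end within 1 kb of it. Among 68970 merged regions with an H3K9cr peak, 1.91% had a peak in every control and no UUO library and 0.535% the reverse, and of the regions at the 9 genes this was the one of the first kind, with 0 of the second. It was singled out after its values were seen. Each of the 9 genes had 1 to 9 merged regions of either mark, and 1 such region among them was not tested against these shares. At the other end of Serping1 a region held H3K9cr peaks in 4 of 4 UUO libraries, of 1617 and 1772 bp in WT and 2277 and 887 bp in ACSS2-/-, and in 3 of 4 control libraries, of 0 and 744 bp in WT and 1626 and 610 bp in ACSS2-/-.

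**Figure D3:**
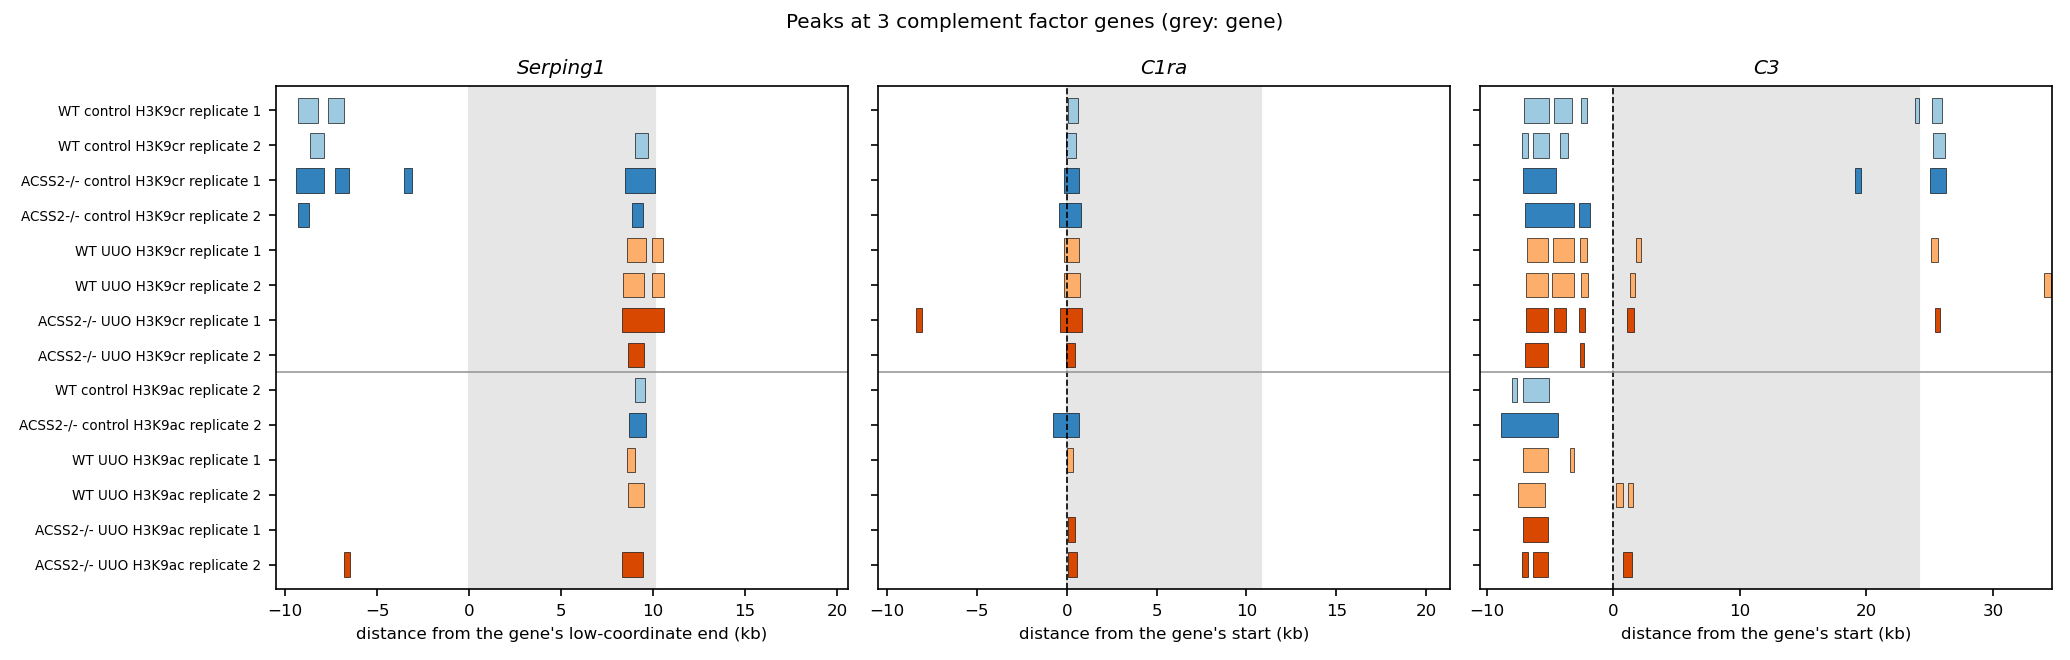
Peaks at Serping1, C1ra and C3 in each of the 14 libraries (rows), as bars against the distance in kb from the gene's start, or for Serping1 from its low-coordinate end, with the gene in grey. The bars about 8 kb left of Serping1 are in the 4 H3K9cr control rows, and C1ra has a bar at its start in all 8 H3K9cr rows.

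Cd55 (chromosome 1, 130429798 to 130465009) encodes decay-accelerating factor, a membrane inhibitor of the C3 convertases. A region from -586 to 652 bp of the listed start held the gene's peak in 8 of 8 H3K9cr and 5 of 6 H3K9ac libraries. The H3K9cr-covered length was 591 and 910 bp in WT control, 1142 and 632 bp in ACSS2-/- control, 937 and 1180 bp in WT UUO and 1161 and 829 bp in ACSS2-/- UUO kidneys. The groups overlapped (1027 ± 172 against 819 ± 258 bp, n = 4 each; exact permutation, p = 0.229, adjusted p = 0.475). With 1 kb on each side of the start, or of either end where the strand is not known, Cfb, C1ra and Cd55 had a peak in all 8 H3K9cr libraries, and 51.6% of protein-coding genes did.

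The effect of ACSS2 deletion was compared in UUO kidneys, with 2 libraries against 2, a design whose smallest exact permutation p is 0.333. For H3K9cr, C3 was lower in both ACSS2-/- libraries, with a mean difference of -1597.5 bp. With 3 kb on each side the difference was -391.5 bp and the groups overlapped. It was also -391.5 bp without peaks at the ends of other genes, of which Trip10 and Gpr108 fall in the upstream region. Of 26480 genes, 23.8% were lower in both ACSS2-/- libraries and 6.76% higher, against 1 and 0 of the 9. The list of ACSS2-/- UUO replicate 2, where C3 was lowest, was the shortest for H3K9cr. After division by total covered length the shares were 13.5% and 17.8%, with C3 lower and Cfb higher.

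For H3K9ac, Cfb, C1ra and Cd55 were higher in both ACSS2-/- UUO libraries. Cfb differed by 2595 bp. Cd55 had 347 and 0 bp in WT against 546 and 959 bp in ACSS2-/- libraries, and C1ra 338 and 0 bp against 388 and 498 bp. Of 22854 genes, 28.3% were higher in both ACSS2-/- libraries and 1.89% lower, so that 3 of 9 was near that share. After division by total covered length the shares were 13.7% and 16.6%, with Cfb and Cd55 higher and C3 lower. Over control and UUO kidneys together 0 of the 9 genes had an H3K9cr difference between genotypes without overlap in both operations, where 2.92% of genes were higher and 0.724% lower in ACSS2-/-. In the test of whether the change with UUO differed between genotypes, the smallest p over the 9 genes was 0.167, for Cfi, and the smallest that this exact permutation can give is 0.0556. For C5ar1 the change was 2093 bp in WT and 1142 bp in ACSS2-/- kidneys (exact permutation of the difference, p = 0.5).

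H3K9cr was compared with H3K9ac within the 4 groups. None of the 9 genes had every library of one mark above every library of the other in every group, where 9.13% of 29386 genes were higher in H3K9cr and 1.03% lower (5.03% and 21.0% after division by total covered length). The study describes both marks as measured on the same samples, and the permutation treats the libraries as separate. C3 had 4088 ± 970 bp of H3K9cr (n = 8) and 2728 ± 912 bp of H3K9ac (n = 6; exact permutation within groups, p = 0.0401, adjusted p = 0.164). Serping1 had 1945 ± 1079 bp against 716 ± 523 bp (exact permutation, p = 0.0556, adjusted p = 0.194). In the 5 pairs of libraries whose peak names give the same mouse, a comparison added after seeing the data, H3K9cr was higher in 5 of 5 for C3, by 155 to 1675 bp, and in 5 of 5 for Serping1, by 245 to 960 bp (exact sign permutation, p = 0.0625 for each, the smallest that 5 pairs can give). The H3K9cr lists were longer than the H3K9ac lists of the same group, and the antibodies came from different suppliers.

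Of 45 other complement genes, 34 had an H3K9cr peak in at least 1 library, and 5 were higher and 1 lower in every UUO library. Over all genes tested 2.38% were higher and 16.8% lower, and 3 of the 5 share 1 locus. C1qa, C1qb and C1qc, the subunits of C1q, were at 0 bp in all 4 control libraries. C1qc had 15662 and 11456 bp in WT UUO and 12481 and 5701 bp in ACSS2-/- UUO libraries. C1qa and C1qb stand beside it on chromosome 4, share its peaks, and had 4469 to 12385 bp and 4671 to 13145 bp in UUO libraries. For H3K9ac C1qc had 321 and 1420 bp in control and 3408 to 14816 bp in UUO libraries. Itgax, a subunit of complement receptor CR4, had 0 bp in control and 436 to 3066 bp in UUO libraries. Cd46, a membrane cofactor for factor I, had 624 to 797 bp in control and 886 to 1270 bp in UUO libraries. Mbl1, a lectin that starts the lectin route, went the other way, from 597 to 929 bp in control to 0 bp in UUO libraries. Each of these 6 had p = 0.0286 and an adjusted p of 0.149 in the exact permutation test of 4 against 4. Over genes with a peak, the median difference was -11.25 bp for the 34, 80.5 bp for the 9 and -238.8 bp for all genes tested. For H3K9ac 4 of the 45 were higher and 13 lower in every UUO library, where 0.369% of all genes tested were higher and 46.1% lower. The 45 include genes without an H3K9ac peak, which the shares leave out.

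**Figure D4:**
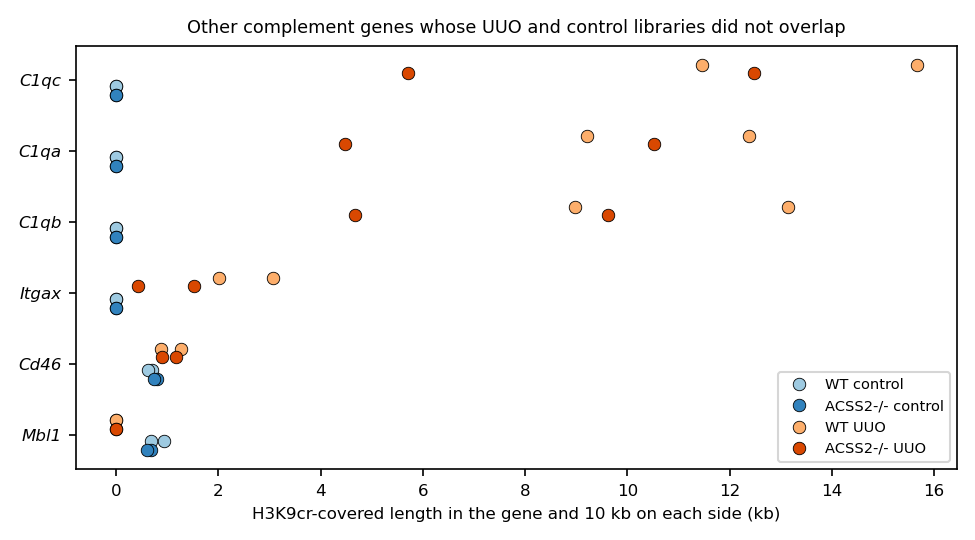
H3K9cr-covered length, in kb, of the 6 other complement genes whose UUO and control libraries did not overlap, with 1 point per library. C1qa, C1qb, C1qc and Itgax are at 0 in the 4 control libraries, and Mbl1 is at 0 in the 4 UUO libraries.

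Some cell type markers differed in the same comparison, for which 2.38% of all genes tested were higher and 16.8% lower. Of 8 leukocyte markers, 4 were higher in every UUO library for H3K9cr (Ptprc, Cd74, Cd52 and Coro1a), and the summed cover of the list was 5134 to 16417 bp in control and 16226 to 33090 bp in UUO libraries. Ptprc, Adgre1 and Cd3e were at 0 in every control library. Adgre1 had 674 and 0 bp in WT UUO and 429 and 0 bp in ACSS2-/- UUO libraries, and overlapped. Cd3e had 1336 and 1821 bp in WT UUO and 0 and 0 bp in ACSS2-/- UUO libraries, and overlapped. The remaining leukocyte markers, Cd68 and Csf1r, overlapped as well, with mean differences of 691.25 and -305.25 bp. Of 8 proximal tubule markers 6 were lower in every UUO library, with summed cover of 34244 to 80301 bp in control and 5951 to 14102 bp in UUO libraries, and each of the 8 had cover in at least 1 library. Of 5 distal nephron markers 1 was lower (Slc12a3), of 5 stroma markers 1 was higher (Col1a1), of 4 endothelial markers 2 were lower (Cdh5 and Kdr), and of 4 injured tubule markers 0 differed without overlap. The distal nephron count is near the share over all genes. Of 4 liver markers, Alb and Serpina1a were at 0 in every H3K9cr library. Ahsg was at 0 in every control library and had 356 bp in WT UUO replicate 1 alone. Apoa1 had 570 to 1855 bp in control and 312 to 658 bp in UUO libraries, which overlapped. The summed leukocyte cover overlapped between the groups, as did that of the injured tubule markers (4023 to 7299 bp in control, 4919 to 14894 bp in UUO). The part of either cell type in the gain at C5ar1 and the C1q genes was not tested. Over the 14 libraries the genes whose covered length followed that of C5ar1 most closely, of 16666 protein-coding genes, were Havcr1 (Pearson r = 0.964), Trim5 (r = 0.961) and Apobec1 (r = 0.958). The points share libraries and list lengths, and the r values describe them only. Havcr1 is one of the injured tubule markers. Its H3K9cr-covered length was 0 bp in every control library, 5222 and 1511 bp in WT UUO and 2672 and 0 bp in ACSS2-/- UUO libraries.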

How the data were processed

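H3K9cr and H3K9ac ChIP-seq was done on whole kidneys, in 14 libraries grouped by the labels. The authors mapped reads to mm10 with Bowtie2, removed organelle, low-quality and duplicate reads, and called peaks with MACS2 per library. Tool versions and any input used in peak calling are not given in the sources used here. The deposited lists hold peak positions, without score, height or strand. Genes came from RefSeq GRCm38.p6, the same assembly as mm10, and strand from the promoter table for 5 of the 9 genes.

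Covered length was computed per gene and library (10 kb on each side; bedtools 2.31.1 gave the same values for the 9 genes). Groups were compared by exact two-sided permutation with Benjamini-Hochberg adjustment over all genes with a peak, and start peaks by Fisher's exact test. Alternatives changed the window, overlap, list length, scaling and strata, left out each library, or used limma 3.58.1 on log2(covered bp + 500); a further one was chosen after seeing the data. Code was tested on simulated data. Named genes were the 9, Acss2, listed complement genes and markers whose groups did not overlap, neighbours, and 3 genes most like a called one. Near copies, markers at 0 in control libraries and the remaining leukocyte and liver markers were also named, chosen after their values were seen. The genes and lists were chosen with earlier results of these data known. Computations ran in R 4.3.3 and Python 3.11.15, with SciPy 1.17.1, pandas 2.3.3, numpy 2.4.6 and matplotlib 3.10.9.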

Additional observations from a re-analysis of the deposited data

How the results depend on the processing

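Counts are of the 9 genes whose groups did not overlap. For H3K9cr in UUO against control the count of 1 was 0 at 1 kb around the start, 0 without peaks at the ends of other genes, 0 with lists of equal number and 2 after division by total cover. With the UUO replicate 1 libraries alone, chosen after seeing the data, it was 2 (C5ar1 and C3ar1, higher), where 11.4% of all genes were higher. For H3K9ac in UUO against control it went from 1 to 3 at the start, 2 without peaks at other genes' ends, 0 after division by total cover and 3 within genotypes. The 3, 2 and 3 were lower, where 37.0%, 42.4% and 64.1% of all genes were. For ACSS2-/- against WT in UUO, H3K9cr went from 1 (C3, lower) to 0 at 3 kb and 2 after division. The direction turned at the start and without peaks at other genes' ends. There the 1 was Cfi, higher, as were 8.1% and 7.24% of genes, and C3 overlapped. C5ar1 stayed apart with genotype or Y-linked peaks as stratum, and limma, which called 13.0% of genes, also called it.

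Leaving out each library gave 1 to 2 for H3K9cr with UUO (2 without WT control replicate 2, adding Cfi, or ACSS2-/- UUO replicate 1, adding Cfb). Both were lower, where 21.0% and 20.2% of all genes were. It gave 1 to 5 for H3K9ac with UUO (5 lower without the WT control library and 3 without ACSS2-/- UUO replicate 2, where 81.3% and 68.5% of all genes were lower, and 2 without WT UUO replicate 2), 2 to 7 for H3K9cr by genotype in UUO (7 lower without ACSS2-/- UUO replicate 1, where 56.3% of all genes were lower; turned to 5 higher and 1 lower, in all 6, without replicate 2, where 31.8% were higher and 29.2% lower; 2 and 3 lower without WT UUO replicates 1 and 2) and 3 to 7 for H3K9ac by genotype (7 higher without ACSS2-/- UUO replicate 1, where 83.1% of all genes were higher; 3 higher and 3 lower without replicate 2, where 33.4% and 28.6% were; 3 higher and 2 lower without WT UUO replicate 1). For H3K9ac with UUO, the 2 genes without WT UUO replicate 2 were C3 and Cfb, both lower, where 48.2% of all genes were. For H3K9cr by genotype, 32.4% and 56.2% of all genes were lower without WT UUO replicates 1 and 2. For H3K9ac by genotype, 34.8% were higher and 12.5% lower without WT UUO replicate 1. Between the marks leaving out each library gave 0 to 1. C1ra was higher in H3K9cr without the ACSS2-/- control H3K9ac library, where 13.0% of all genes were. Serping1 was higher in H3K9cr without ACSS2-/- UUO replicate 2 of H3K9cr or of H3K9ac, where 12.1% and 12.3% were. By genotype over both operations leaving out each library gave 0 to 2 (2 higher without ACSS2-/- UUO replicate 2, where 12.2% of all genes were, 1 lower without WT control replicate 2, where 2.02% were). Apart from the fewer libraries, the cause was not tested.

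With the replicate number as a block the counts were 1 for H3K9cr and 2 for H3K9ac in UUO against control, and 3 and 4 by genotype. In UUO against control, 3.72% of all genes were then higher and 20.7% lower for H3K9cr, and 2.86% and 47.3% for H3K9ac. By genotype, 12.5% were higher and 38.6% lower for H3K9cr, and 46.3% and 4.88% for H3K9ac. The block made C5ar1 higher for H3K9ac in UUO, C5ar1 and Cfi lower for H3K9cr in ACSS2-/- UUO and C3 lower for H3K9ac there. The labels tie the numbers to no shared animal, and deviations of same-numbered libraries correlated from -0.176 to 0.442 between H3K9cr groups, with 0.442 between the UUO groups for H3K9cr and 0.337 for H3K9ac. Peak lists without heights or depth limit every value to presence and width.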
